A study of Mus musculus with 58 samples.

Results

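The genes described here copy DNA or supply its building blocks: 40 listed genes for origin licensing, the replicative helicase, the polymerases, the sliding clamp and its loader, the joining of lagging-strand fragments, deoxynucleotide supply and the copying of chromatin. They were listed by name and role, with earlier results of these data known. Of the 40, 39 have at least 1 probe cluster of their own on the array, among 22180 genes that do, and where a gene has several the brightest stands for it. The only cluster of Rfc4, a subunit of the clamp loader, is shared with Eif4a2, so Rfc4 was left out of all tests. That shared cluster read 6.88 ± 0.32 (SD, n = 29) on a log2 scale in normal livers and 7.61 ± 0.61 (SD, n = 29) in tumors.

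RNA from 29 normal livers and 29 liver tumors of adult mice was hybridised to Mouse Gene 2.0 ST arrays, which read each transcript through many short probes. The study asked whether insertion of adeno-associated virus (AAV) into the genome contributes to liver cancer. Each of these mice, including those that gave the normal livers, was of a mixed strain (129/Sv, C57BL/6 and FVB/NJ) and had received AAV after birth, so no group is free of the virus. The vector, its dose and the age at sampling were not given for single samples, some titles carry +/- or -/- marks whose gene is not stated (that of normal liver 4 also GFP), and none of these could be compared. The titles were read as 39 animals, of which 18 gave both a normal liver and a tumor. No partner was found for 11 normal livers and 11 tumors, and tumors 22 and 26 came from 1 animal. Normal livers 26 and 27 share an animal identifier but carry different marks (+/- and -/-), and were counted as separate animals. The title of normal liver 28 shares a leading number with those of tumors 22 and 26 but names no animal, and it was counted separately. The labels name 37 arrays as male and 20 as female, and 1 tumor has no gender label.

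Values are deposited log2 expression values from 2.91 to 14.08, and array medians ran from 6.72 to 7.15. The array of tumor 9 stood apart, correlating least with the rest of the arrays (mean r = 0.873). In it the mean log2 level of 9 hepatocyte markers was 7.74, against a median of 11.7 over the tumors and 11.4 to 12.1 in normal livers, and T and NK cell markers lay a median of 2.98 log2 units above the normal-liver mean, against -0.44 to 0.53 in the other tumors. The next lowest hepatocyte mean was 11.1, in tumor 23. On 7 arrays (3 normal livers and 4 tumors) Xist and the Y-linked genes measured (Eif2s3y, Kdm5d and Uty) went against the gender label. The main counts are therefore also given without tumor 9, and the count of rising members and the sex counts without those 7 arrays. These are whole-tissue values, in which more cells in S phase and more RNA per cell cannot be told apart.

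Before a cell copies its DNA, the origin recognition complex with Cdc6 and Cdt1 loads the MCM ring onto origins, and geminin (Gmnn) holds Cdt1 in check afterwards. In S phase Cdc45 and the GINS complex turn the MCM ring into an active helicase, polymerase alpha with primase starts each strand, and polymerases epsilon and delta extend them on the PCNA clamp. Ribonucleotide reductase makes the deoxynucleotides, and CAF-1 and Uhrf1 restore histones and DNA methylation marks behind the fork. Most hepatocytes of an adult liver are at rest, and E2F transcription factors are known to switch many of these genes on as cells enter S phase.

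The sequences around the start sites of these genes, a feature the list did not use, are shown first because some short motifs were found in a larger share of them than of all genes, a difference given without a test. RefSeq windows of 300 bases (GRCm38.p6, 250 bases before the start site to 50 after) were matched by symbol for 33 of the 40 genes, with 38 windows; Gins1, Gins2, Gmnn, Mcm4, Pole, Prim2 and Rfc2 were not matched. Capitals mark 2 kinds of motif on either strand: E2F-like letters (the longer TTTGGCGC, TTTCGCGC, TTTCCCGC and TTTGCCGC, and the shorter TTCCCGC, which lies inside TTTCCCGC) and CCAAT, the letters of the NF-Y site. Rrm1 and Mcm6 are shown for the largest rises in tumors, Mcm2 as the next largest, Mcm7 for its several motifs, and Rrm2 and Tk1 as nucleotide supply genes of smaller change. The windows are Rrm1 at chr7:102441445-102441744 (plus strand), Mcm6 at chr1:128359656-128359955 (minus), Mcm2 at chr6:88898731-88899030 (minus), Mcm7 at chr5:138171834-138172133 (minus), Rrm2 at chr12:24708004-24708303 (plus) and Tk1 at chr11:117825965-117826264 (minus), each written 5′ to 3′ on the strand of its gene.
Rrm1: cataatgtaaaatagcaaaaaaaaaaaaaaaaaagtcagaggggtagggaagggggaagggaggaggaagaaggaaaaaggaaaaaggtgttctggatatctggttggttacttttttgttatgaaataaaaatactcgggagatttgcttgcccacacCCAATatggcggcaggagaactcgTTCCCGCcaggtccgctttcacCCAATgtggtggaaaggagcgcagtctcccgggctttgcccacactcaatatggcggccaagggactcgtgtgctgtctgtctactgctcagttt
Mcm6: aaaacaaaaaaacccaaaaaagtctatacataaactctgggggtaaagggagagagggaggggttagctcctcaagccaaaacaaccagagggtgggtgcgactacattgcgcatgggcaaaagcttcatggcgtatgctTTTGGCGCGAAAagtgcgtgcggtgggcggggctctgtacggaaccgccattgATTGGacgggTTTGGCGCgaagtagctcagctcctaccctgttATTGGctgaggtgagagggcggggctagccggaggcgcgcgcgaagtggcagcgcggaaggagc
Mcm2: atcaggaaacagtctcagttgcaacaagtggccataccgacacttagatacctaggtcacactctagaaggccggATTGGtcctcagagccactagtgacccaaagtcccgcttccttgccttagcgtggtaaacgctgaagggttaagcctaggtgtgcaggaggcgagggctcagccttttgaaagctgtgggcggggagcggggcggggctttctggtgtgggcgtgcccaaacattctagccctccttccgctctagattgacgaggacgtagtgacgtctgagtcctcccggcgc
Mcm7: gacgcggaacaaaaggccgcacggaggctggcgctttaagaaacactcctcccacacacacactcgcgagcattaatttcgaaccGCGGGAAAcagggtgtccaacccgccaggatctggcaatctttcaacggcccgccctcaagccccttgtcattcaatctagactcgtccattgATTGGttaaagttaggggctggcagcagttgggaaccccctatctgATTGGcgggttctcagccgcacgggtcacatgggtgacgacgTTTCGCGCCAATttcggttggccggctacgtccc
Rrm2: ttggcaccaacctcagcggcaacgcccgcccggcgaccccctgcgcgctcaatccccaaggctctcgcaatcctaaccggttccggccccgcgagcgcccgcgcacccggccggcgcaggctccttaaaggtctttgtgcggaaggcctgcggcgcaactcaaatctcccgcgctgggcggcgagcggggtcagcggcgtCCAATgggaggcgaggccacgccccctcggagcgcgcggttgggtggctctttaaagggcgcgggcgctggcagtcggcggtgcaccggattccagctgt
Tk1: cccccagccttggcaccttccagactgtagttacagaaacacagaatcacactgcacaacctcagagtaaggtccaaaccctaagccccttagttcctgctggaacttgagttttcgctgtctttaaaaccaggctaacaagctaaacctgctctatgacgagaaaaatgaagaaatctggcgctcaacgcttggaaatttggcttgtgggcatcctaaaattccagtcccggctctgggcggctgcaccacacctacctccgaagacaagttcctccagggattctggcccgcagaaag

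The Mcm6 window holds 3 matches to the longer E2F-like letters, at 110, 106 and 47 bases before the start site, where the first pair overlaps as TTTGGCGCGAAA. The Mcm7 window holds GCGGGAAA 165 bases before the start and TTTCGCGC 16 bases after it. The Rrm1 window has only the shorter TTCCCGC, 67 bases before the start, between 2 CCAAT boxes. The windows of Mcm2, Rrm2 and Tk1 hold no E2F-like match, and that of Tk1 holds no CCAAT either. At least 1 E2F-like match, longer or shorter, was found in 20 of 33 genes (60.6%), against 6.54% of the 27025 genes in the table. The longer letters alone were in 14 of 33 (42.4%), against 2.6% of all genes, and the shorter in 15 (45.5%), against 5.29%. CCAAT was in 60.6% against 41.1%, and GGGCGG, the core of the Sp1 site, in 75.8% against 38.2%. TTTGAA, the letters of the cell cycle homology region (CHR) of many mitotic genes, was in 12.1% of these genes (Cdc45, Fen1, Gins3 and Mcm2) against 20.2% of all genes. An E2F-like match was found in 16 of the 24 windowed genes that rose in tumors and in 3 of the 8 that did not pass the test (Orc1, Pola1 and Pole2). A match is a run of letters, and binding was not measured.

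**Figure D1:**
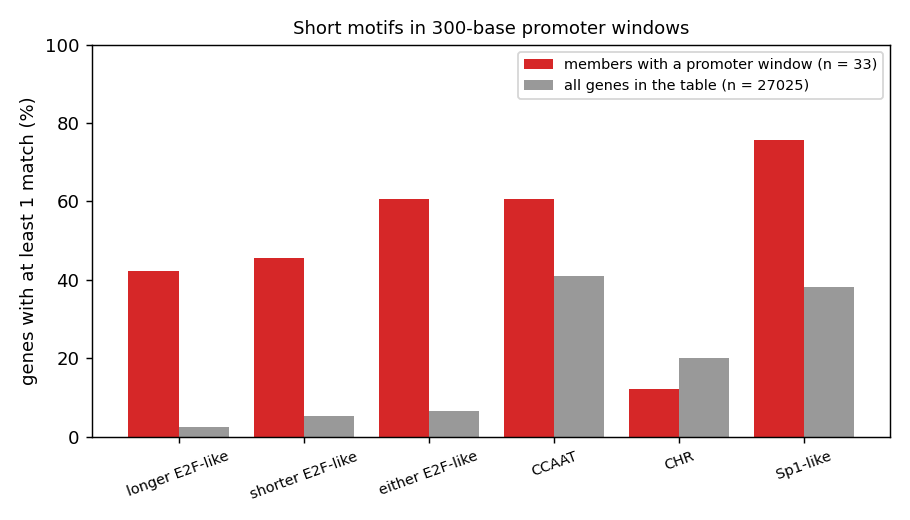
Share of genes (%, vertical axis starting at 0) with at least 1 match to each motif in a 300-base window around the start site, for the 33 replication genes with a window (red) and for 27025 genes (grey). Either E2F-like motif is in 60.6% of the red genes and 6.54% of the grey, while the CHR letters are in 12.1% and 20.2%.

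Tumors had more RNA of most replication genes than normal livers. Of the 39 genes, 31 rose at an adjusted p below 0.05 (limma with the animal as a random block, Benjamini-Hochberg over 22180 genes) and none fell; Fen1 alone was lower at an unadjusted p below 0.05. Over all genes 17.9% rose and 14.3% fell. The rises ran from 0.13 log2 units (Tyms, 1.09-fold) to 1.48 (Rrm1, 2.80-fold). The median change over the 39 was 0.40 log2 units, against -0.021 over all genes. By at least 1 log2 unit, 2 members rose (Rrm1 and Mcm6), where 1.03% of all genes did. The genes that did not pass were Orc1, Orc6, Mcm10, Pola1, Pole2, Fen1, Tk1 and Dut. The count was also 31 without tumor 9 and without the arrays that went against their gender label, where 18.6% and 16% of all genes rose. Without tumor 9, Mcm6 no longer reached 1 log2 unit. In a fit to the unpaired animals alone (11 arrays of each tissue), 15 members rose, where 6.18% of all genes did. That fit had no animal block, although tumors 22 and 26, from 1 animal, were both in it. So were normal livers 26 and 27, whose titles share an animal identifier. Of all called genes, 55.6% rose. With each array centred on the median of all its clusters, an alternative chosen after seeing the data, 34 members rose. There 21.1% of all genes rose, which was 73.1% of the called genes. Under quantile normalization 30 members rose, against 16.5% of all genes (49.5% of the called genes). With array weights 33 members rose, against 24.1% of all genes (46.4% of the called genes).

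**Figure D2:**
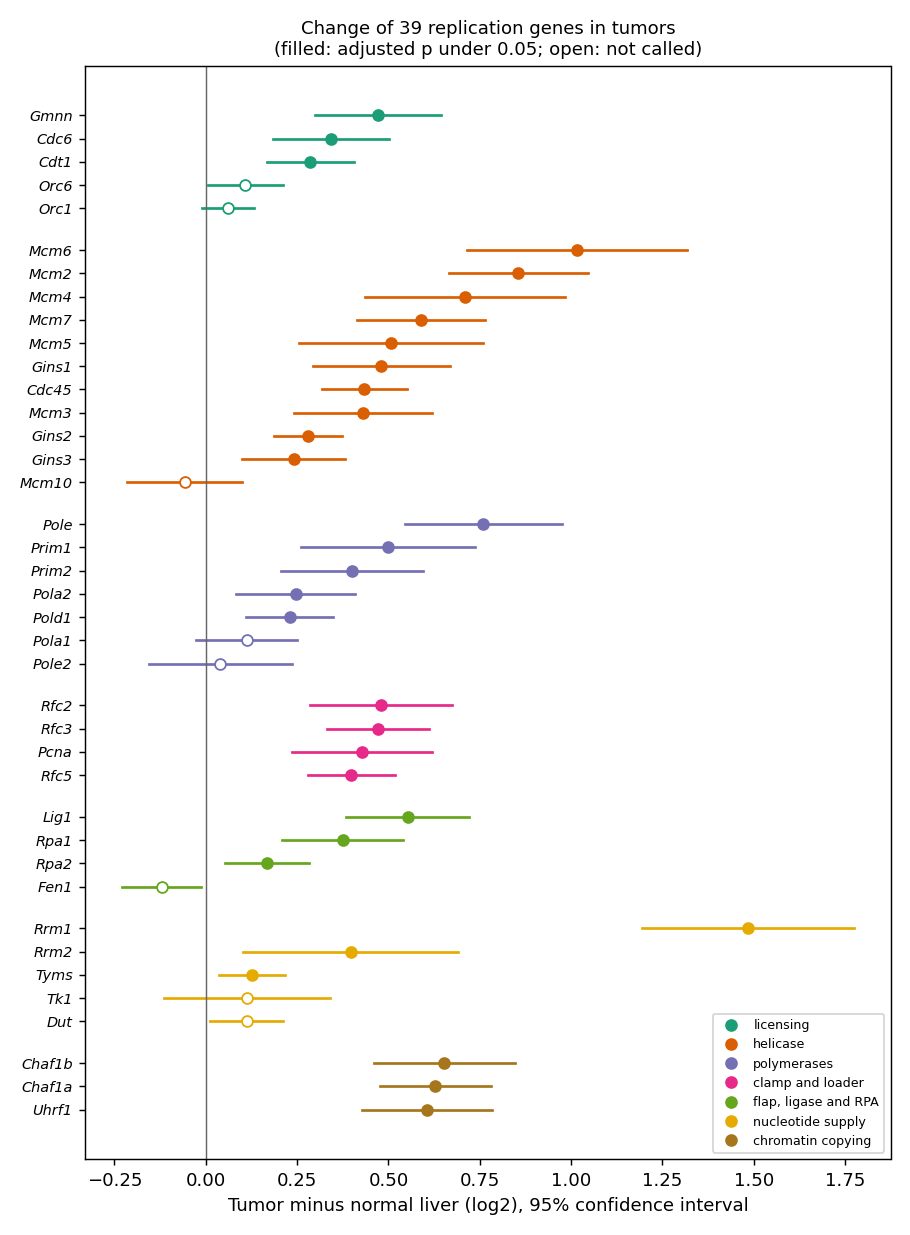
Tumor minus normal liver for 39 genes (horizontal axis, log2), grouped and coloured by role, with 95% confidence intervals from the fit over 29 normal livers and 29 tumors; filled points passed an adjusted p of 0.05 and open points did not. Rrm1 lies farthest right at 1.48 and the 8 open points lie between -0.12 and 0.11.

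Of the 5 licensing genes, 3 rose: Gmnn, Cdc6 and Cdt1. Geminin RNA (Gmnn) read 6.50 at the lowest, 6.93 at the median and 7.76 at the highest in normal livers, and 6.94, 7.33 and 8.48 in tumors. The groups overlapped, with 5 tumors above the highest normal liver. Its mean was 6.97 ± 0.29 (SD, n = 29) in normal livers and 7.44 ± 0.40 (SD, n = 29) in tumors, a rise of 0.47 (SE 0.09, adjusted p = 1.6e-05). It was higher in the tumor of all 18 pairs. In the fit to the unpaired animals alone it did not pass (0.28, adjusted p = 0.237). Cdc6, which recruits the MCM ring, rose by 0.34, and Cdt1, the loader that geminin binds, by 0.29. The origin recognition subunits on the list did not pass: Orc1 differed by 0.06 (SE 0.04, adjusted p = 0.189), higher in 8 of 18 pairs, and Orc6 by 0.11 (SE 0.05, adjusted p = 0.0996), higher in 13. Orc1 read 5.37 ± 0.10 (SD, n = 29) in normal livers and 5.43 ± 0.17 (SD, n = 29) in tumors, and Orc6 7.18 ± 0.17 and 7.29 ± 0.23 (SD, n = 29 each). Orc1 passed under quantile normalization (adjusted p = 0.015), Orc6 with array weights (0.0275) and with sex as a covariate (0.0278), and both with each array centred on the median of all its clusters.

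The helicase genes held some of the largest rises: 10 of 11 passed, 5 of them by over 0.5 log2 units. Mcm6, a subunit of the MCM ring, read 6.60, 7.64 and 8.59 (lowest, median and highest) in normal livers and 6.95, 8.75 and 9.99 in tumors. Tumor 23 lay among the lowest normal livers, and 16 of the 29 tumors lay above all of them. The rise was 1.02 log2 units (2.02-fold, SE 0.15, adjusted p = 2.86e-07), and 17 of 18 pairs were higher in the tumor. Mcm2, another ring subunit, read 7.10, 7.49 and 8.30 in normal livers and 7.59, 8.41 and 9.45 in tumors. It rose by 0.86 (1.81-fold, SE 0.09, adjusted p = 2.39e-10), and 17 tumors lay above the highest normal liver. The other ring subunits rose less: Mcm4 by 0.71, Mcm7 by 0.59, Mcm5 by 0.51 and Mcm3 by 0.43. For Mcm4 only 3 tumors exceeded the highest normal liver, which was normal liver 16.

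The partners of the ring rose too. Cdc45 rose by 0.43, from 7.00 ± 0.15 (SD, n = 29) to 7.43 ± 0.29 (SD, n = 29), and was higher in 17 of 18 pairs. The GINS subunits rose by 0.48 (Gins1), 0.28 (Gins2) and 0.24 (Gins3). Mcm10, which helps activate the helicase, was the exception among the 11, at 8.05 ± 0.30 (SD, n = 29) in normal livers and 7.99 ± 0.32 (SD, n = 29) in tumors. Its difference was -0.06 (95% interval -0.21 to 0.10, adjusted p = 0.612). The highest Mcm10 value, 8.94, was in tumor 16 and the lowest, 7.18, in normal liver 16 of the same animal.

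**Figure D3:**
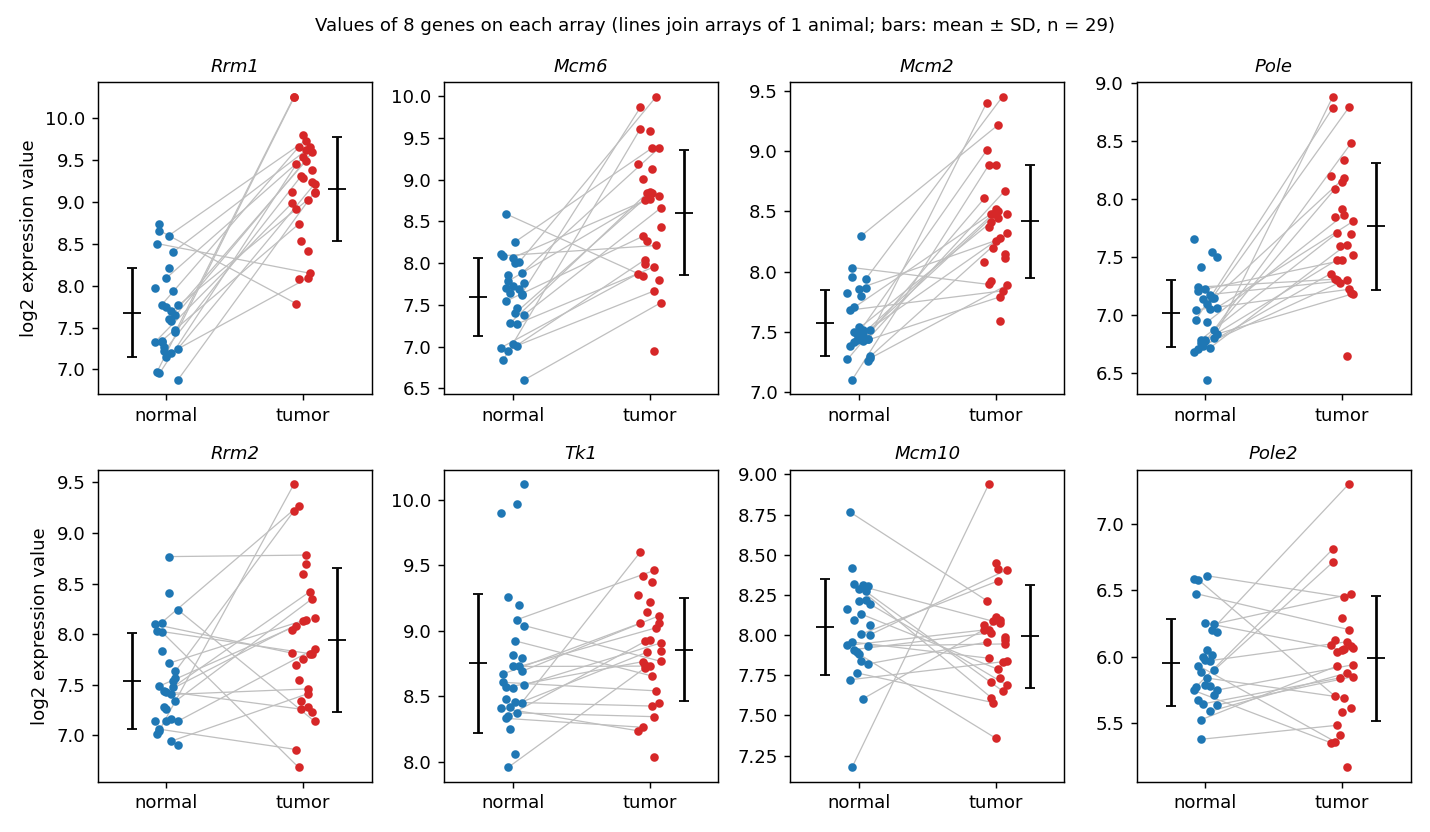
log2 expression values (vertical axes, each to its own range and not starting at 0) of 8 genes on each array, normal livers in blue and tumors in red; grey lines join the 18 pairs and black bars give the mean and SD of 29 arrays. The upper genes rose in most pairs, while lines of Tk1, Mcm10 and Pole2 run both ways.

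Of the 7 polymerase genes, 5 rose. Pole, the catalytic subunit of polymerase epsilon, read 6.44, 7.04 and 7.65 (lowest, median and highest) in normal livers and 6.65, 7.69 and 8.88 in tumors. Of the tumors, 15 of 29 lay above all normal livers. The rise was 0.76 (1.69-fold, SE 0.11, adjusted p = 1.09e-07), with all 18 pairs higher in the tumor. A dimmer second cluster named Pole did not show it, at -0.08 (adjusted p = 0.284). In the fit to the unpaired animals alone the brighter cluster did not pass (0.52, adjusted p = 0.0618). The primase subunits rose by 0.50 (Prim1) and 0.40 (Prim2), the accessory subunit Pola2 by 0.25 (adjusted p = 0.0163) and the catalytic subunit of polymerase delta, Pold1, by 0.23. Under quantile normalization Pola2 did not pass (adjusted p = 0.0675). Pola1, the catalytic subunit of polymerase alpha, read 7.72 ± 0.26 (SD, n = 29) in normal livers and 7.82 ± 0.29 (SD, n = 29) in tumors, a difference of 0.11 (SE 0.07, adjusted p = 0.215). Pole2, the second subunit of polymerase epsilon, read 5.95 ± 0.33 and 5.99 ± 0.47 (SD, n = 29 each), a difference of 0.04 (95% interval -0.16 to 0.24, adjusted p = 0.785). Without tumor 9, where Pole2 was highest, the difference was -0.0071.

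Each of the 4 measured genes of the clamp and its loader rose, by 0.40 to 0.48 log2 units. Rfc2, a loader subunit, rose by 0.48 (SE 0.10, adjusted p = 8.91e-05), from 7.64 ± 0.37 (SD, n = 29) to 8.11 ± 0.40 (SD, n = 29). In normal livers it read 7.11, 7.50 and 8.42 (lowest, median and highest), and in tumors 7.10, 8.21 and 9.05. Its groups overlapped over most of their range, with 4 tumors above the highest normal liver. Rfc5, another loader subunit, rose by 0.40 and was higher in all 18 pairs. Pcna, the clamp itself, rose by 0.43 (adjusted p = 0.000336), from 9.69 ± 0.39 to 10.1 ± 0.38 (SD, n = 29 each), with 2 tumors above the highest normal liver. In the fit to the unpaired animals alone neither Rfc2 (0.39, adjusted p = 0.076) nor Pcna (0.32, adjusted p = 0.131) passed.

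Among the genes that bind single strands and finish the lagging strand, Lig1, Rpa1 and Rpa2 rose. Lig1, the DNA ligase of replication, read 6.78, 7.47 and 8.07 (lowest, median and highest) in normal livers and 7.33, 7.97 and 8.90 in tumors, and 11 tumors lay above all normal livers. It rose by 0.55 (SE 0.08, adjusted p = 5.05e-07). Rpa1 and Rpa2, subunits of the single-strand binding complex, rose by 0.37 and 0.17. A second Rpa1 cluster, near the low end of the values at 4.80 in both groups, differed by 0.0054 (adjusted p = 0.931). Fen1, which trims the flaps, was 7.01 ± 0.18 (SD, n = 29) in normal livers and 6.89 ± 0.24 (SD, n = 29) in tumors, a difference of -0.12 (adjusted p = 0.0805), with 6 of 18 pairs higher in the tumor. Its second cluster went the other way and rose by 0.25 (SE 0.07, adjusted p = 0.00267), and with array weights or sex as a covariate the brightest cluster fell (-0.18 and -0.14), so the data give no single direction for Fen1.

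Nucleotide supply held both the largest rise and several of the smallest changes. Rrm1, the large subunit of ribonucleotide reductase, read 6.87, 7.60 and 8.74 (lowest, median and highest) in normal livers and 7.78, 9.23 and 10.3 in tumors. Every tumor was above the normal-liver mean and 22 of 29 were above the highest normal liver. The rise was 1.48 (2.80-fold, SE 0.14, adjusted p = 6.12e-12), with 16 of 18 pairs higher in the tumor. Rrm2, the small subunit that is made in S phase, read 6.91, 7.44 and 8.77 in normal livers and 6.68, 7.81 and 9.48 in tumors, where the lowest tumor was below every normal liver and 4 tumors were above. It rose by 0.40 (SE 0.15, adjusted p = 0.032), higher in 12 of 18 pairs (exact two-sided sign-flip p = 0.097). In the fit to the 18 pairs alone it did not pass (0.38, adjusted p = 0.187). Whether the changes of Rrm1 and Rrm2 differ was not tested.

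Tyms, which makes thymidylate, rose by 0.13 (SE 0.05, adjusted p = 0.025), from 8.19 ± 0.16 to 8.31 ± 0.18 (SD, n = 29 each), and did not pass in the fit to the 18 pairs (adjusted p = 0.123) or under quantile normalization (adjusted p = 0.32). Dut, which removes dUTP, differed by 0.11 (SE 0.05, adjusted p = 0.0782), from 7.84 ± 0.17 to 7.95 ± 0.21 (SD, n = 29 each), and passed with array weights (adjusted p = 0.0237) and with each array centred on the median of all its clusters (0.0201). Tk1, the cytosolic thymidine kinase of S phase, read 7.96, 8.61 and 10.1 (lowest, median and highest) in normal livers and 8.03, 8.84 and 9.60 in tumors. Normal livers 22, 23 and 25, none of which has a tumor array, read 9.90, 9.96 and 10.1, and no tumor was as high. The Tk1 difference over all arrays was 0.11 (95% interval -0.11 to 0.34, adjusted p = 0.467). Within the 18 pairs its median difference was 0.25, with 11 higher in the tumor (exact two-sided sign-flip p = 0.019, one of 39 such tests and not adjusted).

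The 3 genes of chromatin copying rose by similar amounts. Chaf1b, a subunit of the histone chaperone CAF-1, read 7.36, 7.58 and 8.23 (lowest, median and highest) in normal livers and 7.35, 8.13 and 9.21 in tumors, and 11 tumors lay above all normal livers. It rose by 0.65 (SE 0.10, adjusted p = 2.83e-07). Chaf1a, the large CAF-1 subunit, rose by 0.63, and Uhrf1, which guides maintenance methylation, by 0.61. Each of the 3 was higher in 16 of 18 pairs.

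Pair by pair, the direction was shared by most animals. The members were higher in the tumor in a median of 16 of 18 pairs, against 8 over all genes, and 28 of 39 were higher in at least 15 pairs, as were 10.2% of all genes. Gmnn, Pole and Rfc5 were higher in all 18. The exact two-sided sign-flip test gives any such gene its smallest possible p, 7.6e-06, which is unadjusted and adds nothing to that count. By animal, the number of members higher in the tumor ran from 15 to 39. All 39 were higher in the pair of normal liver 17 and tumor 19, with a median difference of 1.22 log2 units. The exceptions were pair 16 (15 members higher, median -0.14) and the pair of normal liver 19 and tumor 20 (17 members, median -0.06). Array weights, which are lower for arrays that fit less well, were 0.176 for tumor 20 and 0.287 for normal liver 16. They were 0.575 for tumor 16 and 0.783 for normal liver 19, and 0.157 for tumor 9. The part of array quality in these pairs was not tested. Normal livers 16, 19 and 7 had the highest Mki67 values among the normal livers, 9.62, 9.57 and 9.47, against a median of 7.89. In pair 7, 30 members were higher in the tumor, with a median difference of 0.18. Without pair 9 the members were higher in a median of 15 of 17 pairs. Mki67 encodes the Ki-67 marker of dividing cells.

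Tumor by tumor the size of the rise varied widely. Of 1131 values (39 genes in 29 tumors), 298 lay above the highest normal liver of the same gene, and 268 of 1092 without tumor 9. Per gene this was a median of 7 tumors, against 1 over all genes. Per tumor it ran from 0 genes (tumors 21 and 23) to 33 (tumor 19), with a median of 6. Tumors 8 and 9 followed with 31 and 30 genes, and tumor 15 with 22. In tumor 19 the median gene lay 1.15 log2 units above the normal-liver mean, in tumor 9 1.01 and in tumor 8 0.961. The median gene of tumor 23 lay at -0.06 and that of tumor 3 at 0.013. No gene separated the tissues fully, since the lowest tumor was never above the highest normal liver. Tumor 9 had 15.7% of all genes above the highest normal liver and tumor 20 had 19.4%, against a median of 6.21% over the tumors, yet tumor 20 had only 5 of the 39. The part of the other cells in tumor 9 in its values was not tested.

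**Figure D4:**
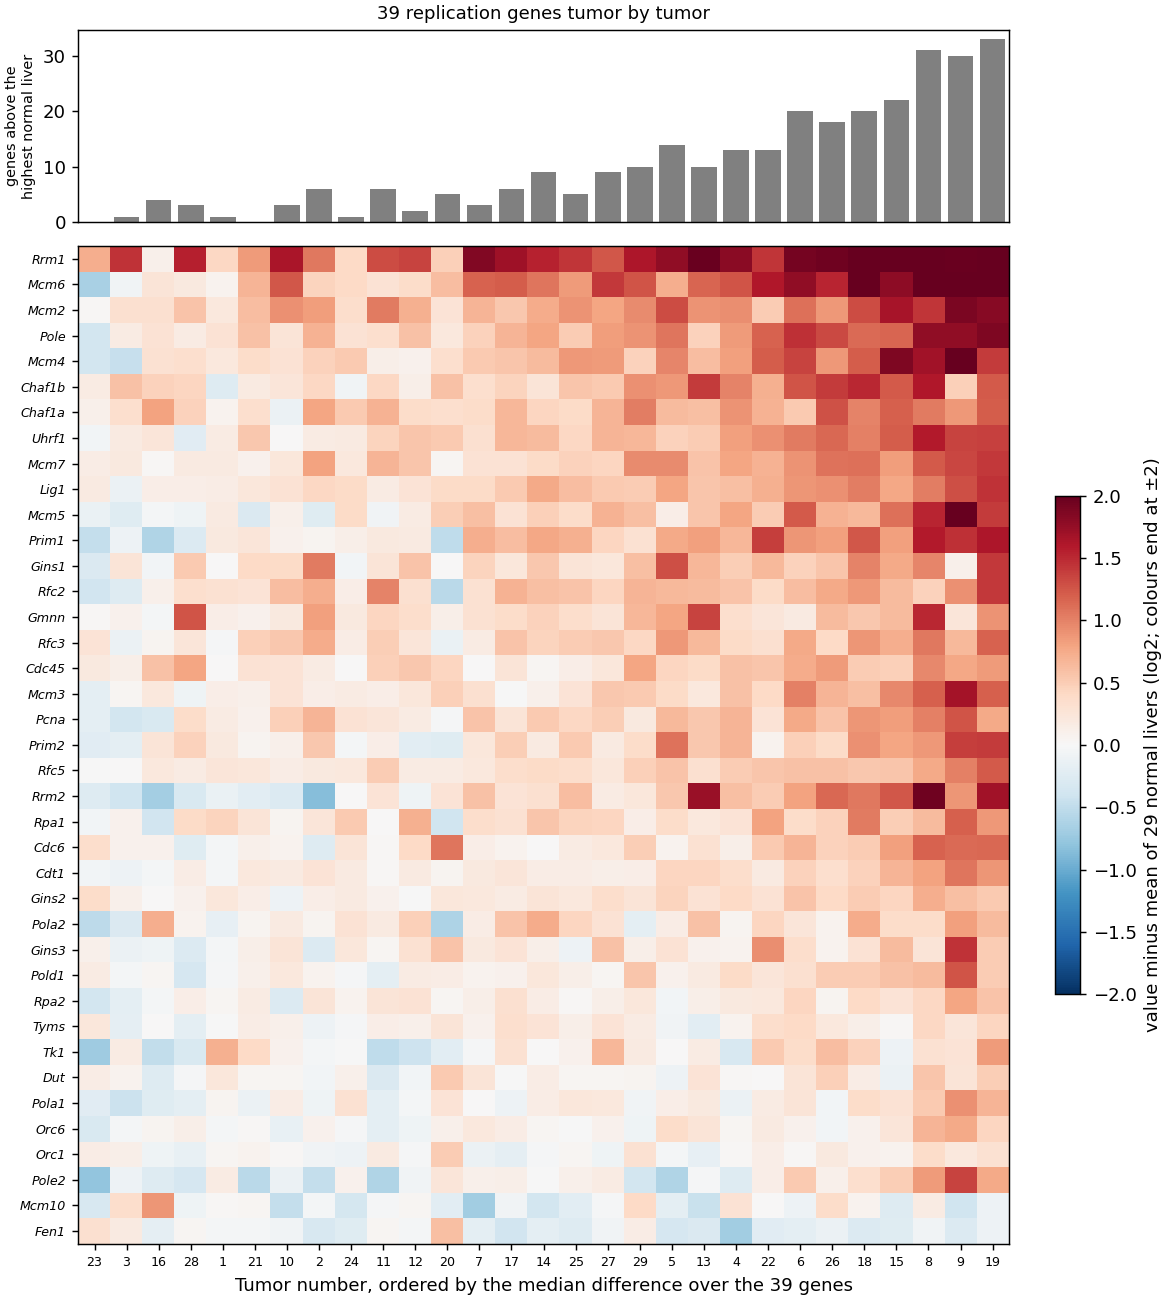
Upper panel: number of the 39 genes above their highest normal liver in each of 29 tumors (bars from 0). Lower panel: value minus the mean of 29 normal livers (log2, colour scale ending at -2 and 2) for each gene (rows, by size of change) and tumor (columns, by median difference). Red increases from tumor 23 on the left to tumors 8, 9 and 19 on the right. The rows of Mcm10 and of Fen1, shown by its brightest cluster only, do not follow.

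The genes varied together across tumors. The median Pearson correlation between 2 members was 0.558 over the 29 tumors and 0.288 over the 29 normal livers, and 59% of member pairs exceeded 0.5 in tumors. Over all pairs of the 22180 genes the median was -0.003 in tumors and 0 in normal livers, and 7.93% exceeded 0.5 in tumors. Without tumor 9 the members' median was 0.546. These are descriptions over tissue samples that share an array each, and 2 of the tumors share an animal. Cdt1 had the highest median correlation with the other members (0.74), while that of Mcm10 was -0.068 and that of Fen1 -0.32. The Fen1 correlations are of its brightest cluster only, and none is given for its second cluster, which rose in tumors. The SD was larger among tumors than among normal livers for 37 of 39 members, as for 67.4% of all genes, with a median ratio of 1.37 against 1.12. The ratio was highest for Pold1 (2.33) and lowest for Tk1 (0.743).

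Mki67 correlated with most members from tumor to tumor, and also with markers of some other cells. Mki67 read 7.36, 9.13 and 10.9 (lowest, median and highest) in the tumors. Pearson's r with Mki67 exceeded 0.5 for 25 of 39 members, as for 3.05% of all genes, with a median of 0.561 against -0.024; Spearman's rho had a median of 0.564. Without tumors 2 and 9, the 2 farthest from the median Mki67 value, the median r was 0.584 and 24 members exceeded 0.5; without tumor 9 alone it was 0.538 and 22 did, as did 1.79% of all genes. Among the gene lists described below, r exceeded 0.5 for 26 of 26 mitosis genes other than Mki67 (median 0.869). It did so for 11 of 35 other replication factors (median 0.254), 10 of 31 regulators of entry into S phase (0.23) and 2 of 30 other nucleotide genes (-0.02). Without tumor 9 these counts were 26, 7, 7 and 1. An r over 0.5 was also found for 6 of 14 T and NK cell markers, 5 of 8 B and plasma cell markers and 3 of 12 stellate and fibroblast markers, and without tumor 9 for 3, 0 and 1. The part of these cells in the correlations was not tested. Mcm5 had the highest r (0.848), followed by Mcm3 (0.831), Uhrf1 (0.829) and Mcm6 (0.812). The size of a change and its covariation with Mki67 did not go together for every gene. Pole2, which did not differ between the tissues by the test, had an r of 0.803, and Rrm1, with the largest rise, 0.463. Gmnn, higher in every pair, had -0.028 and Gins1 0.107; without tumors 2 and 9 these were 0.087 and 0.336.

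**Figure D5:**
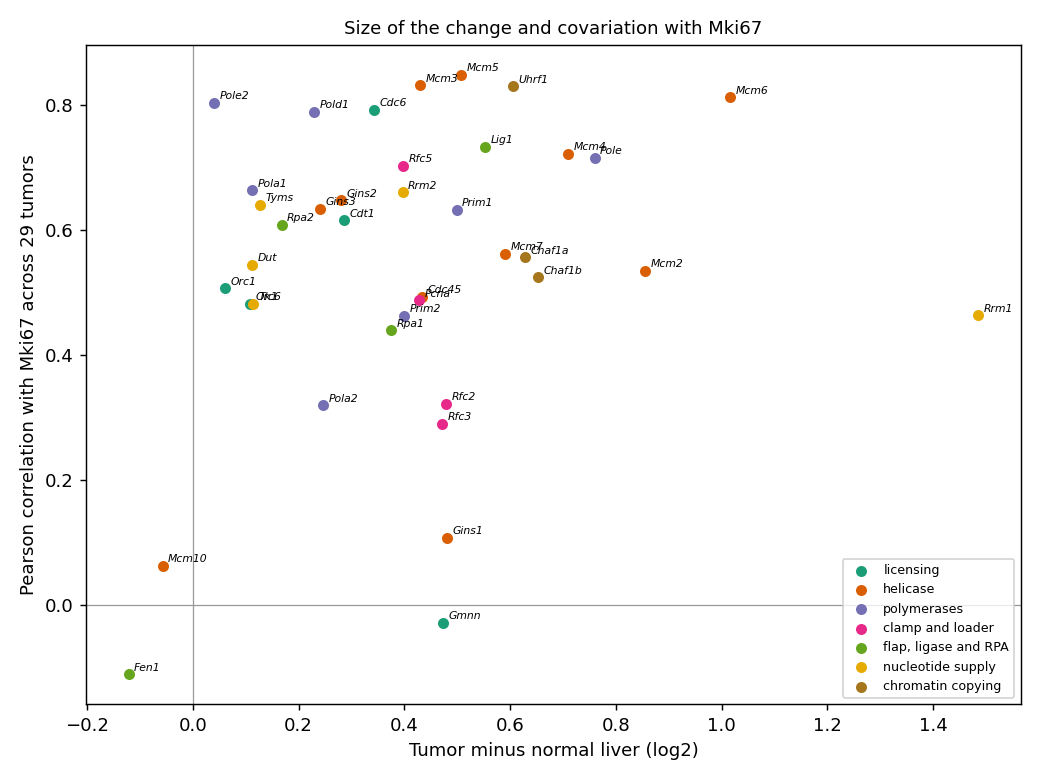
Change in tumors (horizontal axis, tumor minus normal liver, log2) against Pearson's r with Mki67 over 29 tumors (vertical axis) for 39 genes, coloured by role. Most points lie above 0.4 at any size of change, with Gmnn, Gins1, Mcm10 and Fen1 (brightest cluster) near 0 and Rrm1 at 1.48 and 0.463.

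Female and male arrays were compared by label (9 and 20 normal livers, 11 and 17 tumors). No member passed in normal livers, in tumors or in the difference of tumor change between sexes, where 0.0496%, 0.0225% and 0% of all genes passed (limma). In tumors the unadjusted p was below 0.05 for 25 members (64.1%, against 9.96% of all genes), 24 of them lower in females, and 37 of 39 were lower in females (94.9%, against 46.7%). In normal livers 1 member had such a p (Mcm10, 2.56% of members against 3.69% of all genes), and in the difference of tumor change 11 (28.2% against 4.53%). Prim1 was 6.84 ± 0.57 (SD, n = 11) in female tumors and 7.44 ± 0.49 (SD, n = 17) in male tumors, a difference of -0.60 (95% interval -0.92 to -0.27, adjusted p = 0.376, the smallest among the members). Mcm6 differed by -0.61 (-1.03 to -0.20). The members are correlated and these counts are no independent tests. Without the arrays that went against their label, 16 members had an unadjusted p below 0.05 in tumors (41%, against 8.7% of all genes) and none passed.

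Normal livers with a tumor array of the same animal (18) were set against those without one (11). No member passed, where 0.0135% of all genes did (limma). The unadjusted p was below 0.05 for 5 members (12.8%, against 9.65% of all genes), each lower in livers with a tumor array, and 32 of 39 were lower there (82.1%, against 48%). Cdc45 had the smallest adjusted p, 0.357, at a difference of -0.15 (95% interval -0.26 to -0.03). Tk1 was 8.57 ± 0.27 (SD, n = 18) with and 9.04 ± 0.71 (SD, n = 11) without, a difference of -0.46 (-0.82 to -0.10, adjusted p = 0.366), and the 3 high livers named above were among those without. Normal livers 26 and 27, whose titles share an animal identifier, were both among those without, and no animal block was fitted. A missing tumor array does not show that an animal had no tumor.

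Other genes of the pathway were read from lists. Of 35 measured other replication factors 21 rose and 1 fell, with a median change of 0.26. Dbf4, which activates the kinase that fires origins, rose by 0.99 (SE 0.10, 18 of 18 pairs), Mcm8 by 0.65 and the histone chaperone Asf1b by 0.56, while Mcm9 fell by 0.17 (adjusted p = 0.026). Cdc7, the kinase that Dbf4 activates, differed by 0.04 (adjusted p = 0.645). Rfc1, the large clamp loader subunit, rose by 0.27, and Dnmt1, the maintenance methyltransferase, by 0.37. Of 30 measured other nucleotide genes 13 rose and 1 fell: the largest rises were Ppat (0.85), the entry enzyme of purine synthesis, Dctd (0.79), which deaminates dCMP, and Ctps2 (0.68), which makes CTP, and the nucleoside transporter Slc29a1 fell by 0.32 (adjusted p = 0.0115). Across the tumors the r with Mki67 of these 3 rising genes was 0.040, -0.24 and 0.051. Rrm2b, the alternative small subunit of ribonucleotide reductase, rose by 0.24. The mitochondrial thymidine kinase Tk2 (-0.15, adjusted p = 0.144) and the dNTP-degrading Samhd1 (0.20, adjusted p = 0.238) did not pass.

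Of 31 measured regulators of entry into S phase 13 rose and 4 fell. E2f3, one of the activating E2F factors, rose by 0.96 (SE 0.11, 17 of 18 pairs), Ccna2, the S phase cyclin A, by 0.95, and Ccnd3, a D-type cyclin, by 0.68. E2f1, E2f2 and E2f6 rose by 0.32, 0.32 and 0.35 and Ccne1 by 0.34; Ccne2 has only a cluster shared with another gene. Ccnd1, the D-type cyclin of early G1, fell by 0.90 (SE 0.22, 4 of 18 pairs higher in the tumor), the repressive factor E2f8 by 0.51 (adjusted p = 0.0338) and E2f5 by 0.19. E2f4 (-0.07, adjusted p = 0.424) and E2f7 (-0.10, adjusted p = 0.276) did not pass. E2f3 had an r of -0.134 with Mki67 across the tumors and Ccna2 one of 0.935. Without tumor 9 the counts were 21 and 1, 13 and 2, and 13 and 4 for the 3 lists above. Without the arrays against their gender label they were 21 and 0, 13 and 0, and 12 and 2. Of 27 measured mitosis genes 27 rose, also without either, with a median of 0.73, led by Cdk1 (1.45), the mitotic kinase, and Ect2 (1.38), which sets the cleavage furrow; Mki67 rose by 1.06. With each array centred on the median of all its clusters, the fall of Ccnd1 passed and those of Mcm9 (adjusted p = 0.177), Slc29a1 (0.0603), E2f5 (0.27) and E2f8 (0.072) did not. Under quantile normalization Mcm9 and E2f6 did not pass, and Tk2 and E2f4 fell by 0.23 and 0.15.

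Markers of other cells were measured beside these counts. Of 14 T and NK cell markers 2 rose (Cd4 and Ccl5), with mean levels of 6.55 to 7.61 over normal livers and 6.53 to 9.22 over tumors. None of 8 B and plasma cell markers passed, with means of 7.11 to 8.98 and 6.75 to 11.7. Of 14 macrophage markers 5 rose and 5 fell, of 12 stellate and fibroblast markers 4 rose and 5 fell, of 10 endothelial markers 3 rose and 2 fell, and of 8 cholangiocyte markers 5 fell. One of 12 neutrophil and marrow markers and 1 of 6 erythroid markers rose. Of the 9 hepatocyte markers 3 fell (Apoa1, Serpina1a and Hnf4a). Without tumor 9, 7 hepatocyte markers fell and 2 rose, 3 B and plasma cell markers fell, and 1 T and NK cell marker rose and 1 fell; the other marker counts were as with it. Under quantile normalization 3 macrophage markers rose and 6 fell, and 3 endothelial markers rose and 3 fell. In that setting 3 cholangiocyte markers fell and Ccl5 did not pass. With each array centred on the median of all its clusters, 1 cholangiocyte marker fell, Hnf4a did not pass, and Ass1 and Des rose. The part of these cells in the replication gene values was not tested.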

How the data were processed

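The 58 Affymetrix arrays were read from 1 table of deposited log2 values, which the authors made with Expression Console (Affymetrix), per the submitters' processing notes; the version, the algorithm and the normalization were not given in the sources used here. Total RNA was labelled for whole-transcript arrays, per the labels' protocols. Of 41345 probe clusters, 23521 name 1 gene symbol in the platform annotation, 1814 several and 16010 none; the brightest cluster with 1 symbol stood for each of 22180 genes. The number of arrays limits precision, and nothing but the titles shows which arrays come from separate animals. Tumors and normal livers were compared with limma 3.58.1 (R 4.3.3): lmFit, the animal as a random block (duplicateCorrelation, correlation 0.145), eBayes with trend, and Benjamini-Hochberg over all genes, called at an adjusted p below 0.05. The pairing comes from shared animal identifiers in the titles; same-animal arrays deviated from their group means with a median correlation of 0.241 (-0.196 to 0.539, above 0.1 in 15 of 18 pairs). Labelled sexes, and normal livers with and without a tumor array, were fitted in the same way, the latter with no block. The members, the other lists and the tests were chosen with earlier results of these data known. Values are given for the largest and smallest changes overall and per role and for members not called. Members whose call or direction changes with the processing are named, some with their change only. The limma fits of tissue, of the sex difference in tumor change and of normal livers with and without a tumor array were tested on simulated data. The other steps were not. The counts of other lists under other scalings, and the counts of lists, pairs, tumors and correlations without tumor 9 or the arrays against their gender label, were added after seeing the data. Promoter windows came from RefSeq (GRCm38.p6) and were searched for fixed letters on both strands. Protein sequences were not used here.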

Additional observations from a re-analysis of the deposited data

How the results depend on the processing

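The count of 31 rising members was 31 with no replicate block, where 16.6% of all genes rose. In a paired fit (18 pairs, animal as fixed replicate block) it was 29, where 12.6% did. It was between 30 and 34 under centring, quantile normalization, array weights, sex as a covariate, the mean of clusters and no trend. The same range held for a looser reading of titles, and without tumor 9 or the arrays against their gender label. In those settings 16% to 24.1% of all genes rose. The count was 23 of 27 among brighter genes, of which 29.8% rose. In animals without a pair it was 15, where 6.18% of all genes rose, with fewer samples and also a smaller change. Not passing there were Cdt1, Gmnn, Mcm3, Mcm5, Gins1, Gins3, Pola2, Prim2, Pold1, Pole, Pcna, Rfc2, Rpa1, Rpa2, Rrm2 and Tyms. Their adjusted p (limma) ran from 0.0618 (Pole) to 0.829 (Pola2). The members' median change there was 0.296, against 0.40 over all arrays and 0.452 in the 18 pairs. The 2 members above 1 log2 unit became 1 in animals without a pair, under quantile normalization and without tumor 9. The members that fell became 1 (Fen1) with array weights (-0.18) and with sex as a covariate (-0.14). Changes of sign were Pola1 -0.035, Pole2 -0.10 and Tk1 -0.084 in animals without a pair, Fen1 0.067 as the mean of its clusters, Pole2 -0.0071 without tumor 9, and, on a gene's other cluster, Fen1 0.25, Dut -0.077, Pole -0.078 and Rrm2 -0.023; the cause was not tested. Of all values recomputed for single members, 500 kept direction and side of the threshold, 21 lost their call, 9 gained one and 9 changed sign. The paired counts, the tumor-by-tumor counts (298; 300 when centred, 411 above the second highest normal liver) and the counts of 0 for sex and for normal livers with and without a tumor array kept within 1.5 times. Signal near the low end of the array limits dim genes such as Orc1.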
